A study of Zea mays with 48 samples.

Results

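Fatty acid and oil synthesis was followed through 5 maize genes, from a regulator to the last enzyme of oil assembly. They were taken by gene identifier from the deposited table, 5 of its 39656 gene models: EREB85 (GRMZM2G124524), Acc-1 (GRMZM5G858094), acp (GRMZM2G175818), fad7 (GRMZM2G128971) and DGAT1-2 (GRMZM2G169089). The libraries came from hybrid seeds of 2 inbred lines, B73 and Mo17, crossed in both directions. In MB seeds Mo17 was the mother and B73 gave the pollen, and in BM seeds B73 was the mother and Mo17 gave the pollen; all seeds carried both genomes and the labels give no other treatment. For each cross there were 3 replicate libraries of endosperm at 5 days after pollination (DAP), of embryos cut out by laser microdissection (LCM) at 3 and 5 DAP, and of embryos collected by hand (manual) at 5, 7, 9, 11 and 13 DAP. That gave 8 sample kinds, 16 groups and 48 libraries. Each replicate pooled embryos or endosperms from at least 3 ears, many embryos to a tube, per the labels, so a value is a mean over a pool and the p-values measure the spread between pools.

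Plant fatty acids are built in the plastid and stored as triacylglycerol in oil bodies, which in maize seeds fill mainly the embryo. Acetyl-CoA carboxylase, the product of Acc-1, makes the malonyl-CoA that feeds chain growth, and acyl carrier protein, the product of acp, holds the chain while it grows. EREB85 belongs to the AP2/EREBP transcription factors, a family whose member WRINKLED1 is known in Arabidopsis to activate fatty acid synthesis genes. FAD7 in Arabidopsis is the plastid desaturase that turns linoleic into linolenic acid, mostly in the lipids of plastid membranes, and diacylglycerol acyltransferase, the product of DGAT1-2, adds the last fatty acid to make triacylglycerol.

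Total counts per library ran from 7130090 to 21698127, and the fewest counts behind any value of these 5 genes were 57, for EREB85 in BM LCM embryos at 5 DAP replicate 2. Levels are given as CPM (the count over the library total, times 1000000) and, where genes are compared with each other, as the deposited FPKM, which is per length. The expression of a gene and the share of its cells in a pool move these values alike: fewer cells of a type and less RNA per cell cannot be told apart. In LCM embryos of 3 DAP BM replicate 3 and MB replicate 1 stood apart: pairs of replicates there had r of 0.872 to 0.973 over genes, against 0.962 or above in the remaining groups. As a check of the tissue labels, the embryo regulator lec1 (GRMZM2G011789) averaged 0.334 CPM in endosperm and 57.7 CPM in manual embryos at 5 DAP. The endosperm polycomb gene fie1 (GRMZM2G118205) averaged 357 CPM in endosperm and 12.8 CPM in manual embryos at 5 DAP. Other markers did not follow the labels. The embryo marker wox2a (GRMZM2G108933) averaged 35.8 CPM in endosperm and 12.5 CPM in manual embryos at 5 DAP. Of the 10 endosperm markers betl3 (40.0 CPM in endosperm and 87.2 CPM in these embryos), ebe2 (12 and 41.9 CPM) and the 3 genes of the embryo-surrounding region were higher in the embryos: esr1 (GRMZM2G046086) averaged 38.7 CPM in endosperm, 4467 CPM in LCM embryos and 1690 CPM in manual embryos at 5 DAP.

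**Figure D1:**
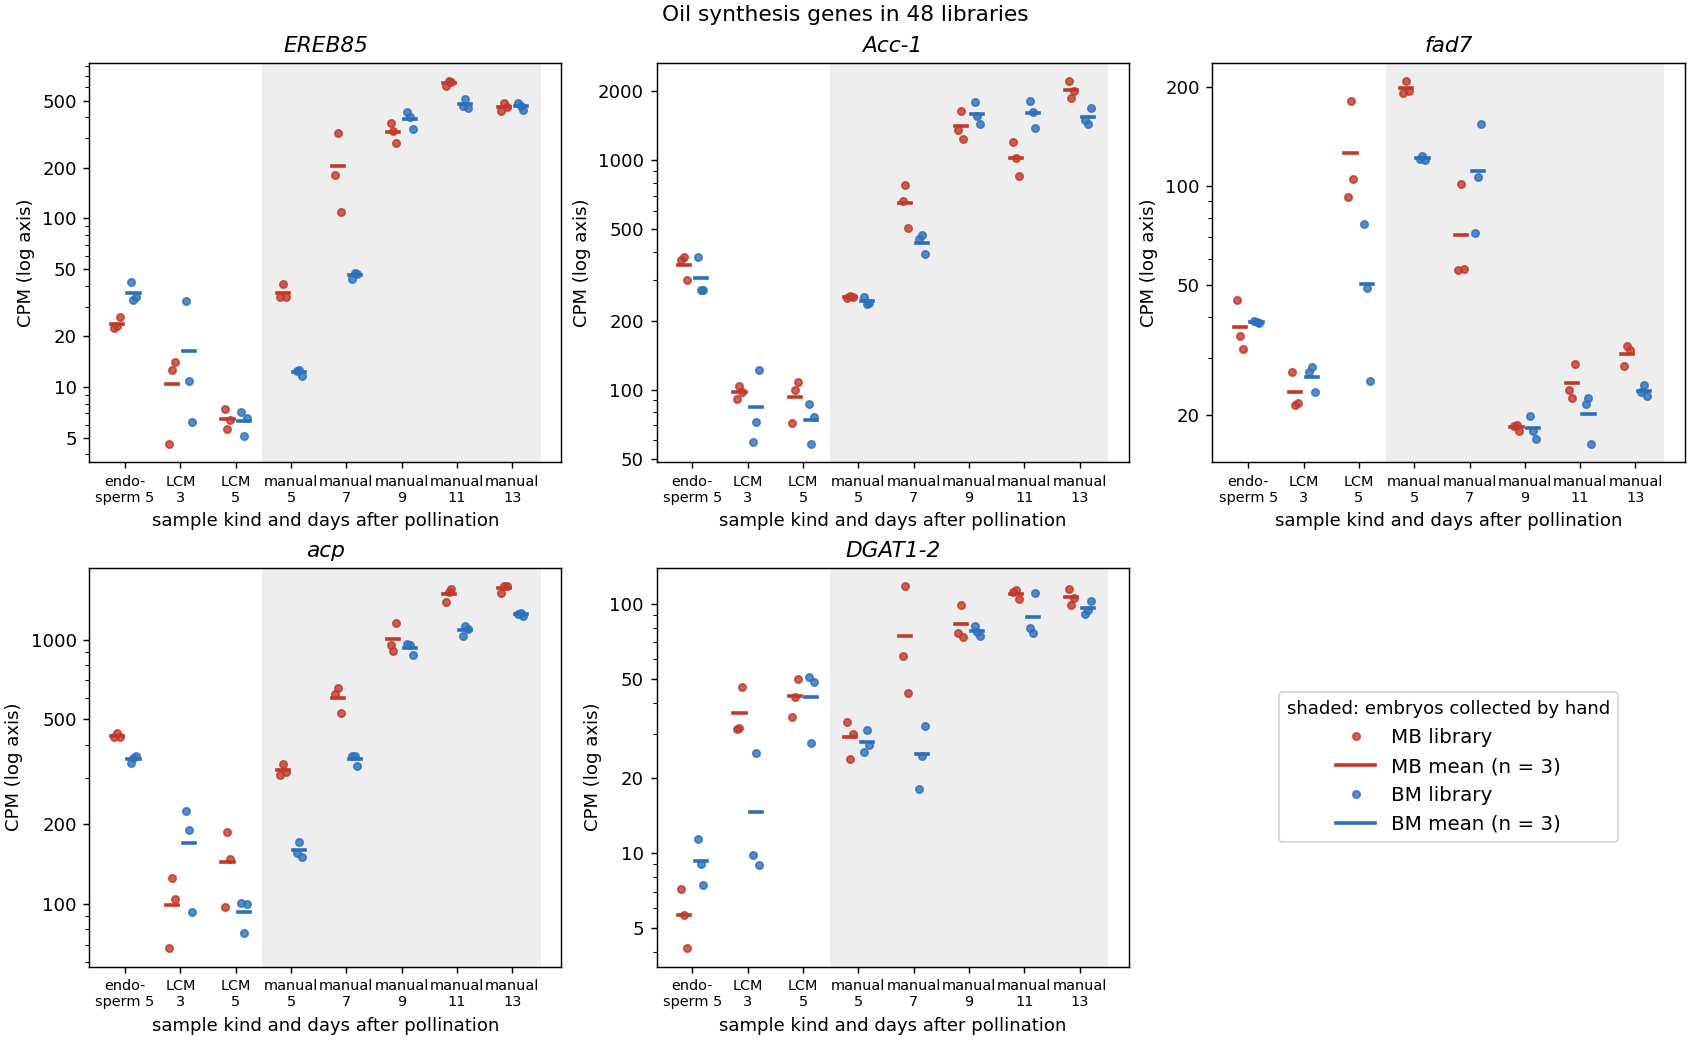
CPM (log axis) of EREB85, Acc-1, fad7, acp and DGAT1-2 in the 48 libraries by sample kind; points are libraries, bars are means of 3 libraries, MB in red to the left of BM in blue, and the shaded area holds the manual embryos. EREB85, Acc-1 and acp climb between 5 and 9 DAP, fad7 drops to 17 to 19.9 CPM at 9 DAP, and DGAT1-2 is lowest in endosperm.

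EREB85 had the highest log2 fold change with age of the 5 genes in manual embryos. Over both crosses its mean (SD, n = 6) was 24.3 ± 13.4 CPM at 5 DAP and 125 ± 110 CPM at 7 DAP. It was 358 ± 52.3 CPM at 9 DAP, then 556 ± 90.8 CPM at 11 DAP and 460 ± 20.9 CPM at 13 DAP. The lowest library at 13 DAP stood at 431 CPM and the highest at 5 DAP at 40.7 CPM, so these ages did not overlap. Between 13 and 5 DAP the log2 fold change was 4.55 ± 0.25 (SE; edgeR adjusted p = 3.6e-08). EREB85 rose over 3 intervals in a row, by 2.27 ± 0.25 between 5 and 7 DAP (adjusted p = 4.3e-05), by 1.88 ± 0.48 between 7 and 9 DAP (adjusted p = 0.011) and by 0.62 ± 0.12 between 9 and 11 DAP (adjusted p = 0.0024). The last of these steps was not called in 1 fit over all 48 libraries (adjusted p = 0.052). From 11 to 13 DAP the log2 fold change was -0.22 ± 0.09 (adjusted p = 0.12).

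The crosses differed for EREB85 in young manual embryos. At 5 DAP EREB85 stood at 34.2, 40.7 and 34.3 CPM in MB embryos, against 12.4, 12.7 and 11.7 CPM in BM embryos. At 7 DAP it stood at 182, 320 and 110 CPM in MB embryos, against 44.0, 47.7 and 47.1 CPM in BM embryos. Every MB library was above every BM library at both ages, and the MB libraries at 7 DAP were themselves spread widely. MB over BM was 1.48 ± 0.12 at 5 DAP (adjusted p = 1.8e-06) and 2.09 ± 0.45 at 7 DAP, where it did not pass (adjusted p = 0.066). The 7 DAP difference passed without MB replicate 2 (1.60, adjusted p = 0.027) or without MB replicate 3 (2.40, adjusted p = 0.0061), by DESeq2 (adjusted p = 0.00011), on FPKM (adjusted p = 0.027) and in 1 fit over all libraries (adjusted p = 9.7e-05).

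At 9 DAP the crosses overlapped for EREB85. MB embryos had 366, 331 and 282 CPM and BM embryos 428, 402 and 340 CPM (-0.24 ± 0.11, adjusted p = 0.65). From 7 to 9 DAP the mean was thus 1.60 times higher in MB, with overlapping ages, and 8.42 times higher in BM, with no overlap; whether the interval itself differed between the crosses was not tested. At 11 DAP MB embryos were above BM embryos again, with 613, 651 and 645 CPM in MB and 466, 512 and 451 CPM in BM (0.47 ± 0.11, adjusted p = 0.014), a call lost without MB replicate 2 (0.45, adjusted p = 0.084) and in 1 fit over all libraries (adjusted p = 0.58). At 13 DAP the 3 MB and 3 BM libraries overlapped (0.07 ± 0.07, adjusted p = 0.47). The difference between the crosses was smaller at 13 than at 5 DAP when tested directly (interaction -1.40 ± 0.12, adjusted p = 3.1e-08; 0.068 in 1 fit over all libraries).

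Cell type markers differed between the same libraries. At 5 DAP the summed level of 4 embryo markers (lec1, wox2a, kn1 and yab14) was 227 to 276 CPM in MB and 49.4 to 60.9 CPM in BM manual embryos. The summed level of 10 markers of endosperm and its domains was 1733 to 1801 CPM in MB and 8977 to 10178 CPM in BM manual embryos, where o2 was at 0, against 1049 to 2308 CPM in endosperm itself. Over all 6 manual libraries at 5 DAP most of that sum was esr1, esr2 and esr3 (means of 1690, 2431 and 1438 CPM), while fie1 averaged 12.8 CPM, gz27 1.98 CPM and bt1 0.429 CPM. At 7 DAP the endosperm list summed to 302, 284 and 1974 CPM in MB replicates 1 to 3 and to 1204, 925 and 1693 CPM in BM replicates 1 to 3. The MB library with 1974 CPM was the lowest of its group for EREB85, Acc-1, acp and DGAT1-2, but not for fad7 (56.0 CPM, against 55.5 CPM in replicate 1). The BM library with 1693 CPM was the lowest of its group for Acc-1 and acp. It was the highest of that group for fad7 and DGAT1-2, and lay between the others for EREB85. The part of these markers in the cross and age differences was not tested.

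In endosperm the crosses stood in the opposite order. EREB85 had 22.5, 23.0 and 26.0 CPM in MB endosperm, against 41.8, 33.0 and 34.3 CPM in BM endosperm. Every MB library was below every BM library (-0.60 ± 0.12, adjusted p = 0.0051; 0.43 in 1 fit over all libraries). The cross difference was lower in endosperm than in manual embryos of the same age (interaction -2.04 ± 0.17, adjusted p = 3.9e-07). Endosperm averaged 23.8 ± 1.86 CPM and manual embryos 36.4 ± 3.73 CPM in MB, whereas endosperm averaged 36.4 ± 4.76 CPM and manual embryos 12.3 ± 0.504 CPM in BM (SD, n = 3). In plain CPM these are 2 opposite differences, with no overlap between tissues in either cross. With TMM factors taken over all libraries, endosperm averaged 25.2 CPM and manual embryos 28.8 CPM in MB. In BM the scaled means were 38.3 CPM in endosperm and 10.3 CPM in manual embryos. On these scaled means endosperm was higher than manual embryos in BM but lower in MB, so the positive pooled tissue difference came from BM. That difference, on counts scaled within the comparison, was 0.87 ± 0.33 (edgeR adjusted p = 0.03). It lost its call without any 1 of the BM embryo replicates 1, 2 and 3 (adjusted p = 0.11, 0.11 and 0.1), without BM endosperm replicate 2 or 3 (0.052 and 0.054), without a filter (0.054), on FPKM (0.063) and with the replicate number as a block (0.08).

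LCM embryos held little EREB85 transcript. At 5 DAP it had 7.41, 5.66 and 6.40 CPM in MB and 7.15, 5.17 and 6.61 CPM in BM LCM embryos, below every manual embryo library of that age. LCM over manual was -0.98 ± 0.26 (adjusted p = 0.0029), from counts scaled by TMM within that comparison, where the median over all genes was -0.15. TMM factors taken over all libraries raise LCM levels at 5 DAP by 1.28 to 1.49 times and lower manual levels at 5 DAP to 0.787 to 0.837 times. On the scale of all libraries EREB85 averaged 8.44 CPM in LCM and 28.8 CPM in manual embryos in MB. In BM it averaged 9.39 CPM in LCM and 10.3 CPM in manual embryos, so on that scale the difference lay mostly in MB. MB over BM in these LCM embryos was -0.17 ± 0.31 (adjusted p = 0.78), below that of manual embryos (interaction -1.64 ± 0.29, adjusted p = 0.0069). At 3 DAP LCM embryos had 4.62, 12.7 and 14.2 CPM in MB and 32.4, 10.9 and 6.21 CPM in BM, so the crosses overlapped and single libraries of 1 group differed several-fold. Between 5 and 3 DAP the change was -1.20 ± 0.40 (adjusted p = 0.076), and without both LCM libraries that stood apart it was -1.55 ± 0.31 (adjusted p = 0.0065); leaving out only BM replicate 3 or only MB replicate 1 gave adjusted p = 0.035 and 0.036, DESeq2 gave 0.026 and 1 fit over all libraries gave 0.00019.

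Acc-1 rose early in manual embryos and then stayed high. Its mean (SD, n = 6) was 248 ± 8.62 CPM at 5 DAP and 545 ± 147 CPM at 7 DAP. It was 1506 ± 201 CPM at 9 DAP, then 1320 ± 367 CPM at 11 DAP and 1791 ± 301 CPM at 13 DAP. The lowest library at 7 DAP, at 391 CPM, was above the highest at 5 DAP, at 257 CPM, and the lowest at 9 DAP, at 1240 CPM, was above the highest at 7 DAP, at 779 CPM. The rises were 1.16 ± 0.12 between 5 and 7 DAP (edgeR adjusted p = 7.4e-06) and 1.52 ± 0.15 between 7 and 9 DAP (adjusted p = 5e-06). From 9 to 11 DAP Acc-1 gave -0.23 ± 0.12 (adjusted p = 0.17) and from 11 to 13 DAP 0.51 ± 0.18 (adjusted p = 0.097). The last of these passed by DESeq2 (adjusted p = 0.034), in 1 fit over all libraries (0.023) and without BM 11 DAP replicate 1 (0.60, adjusted p = 0.036). In MB the mean was 1410 CPM at 9 DAP, 1026 CPM at 11 DAP and 2036 CPM at 13 DAP. In BM it was 1601, 1614 and 1547 CPM at these ages. Whether these intervals differed between the crosses was not tested. Over the whole course Acc-1 rose by 2.97 ± 0.09 at 13 against 5 DAP (adjusted p = 1.5e-12).

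For Acc-1 the crosses changed places after 9 DAP. Manual embryos at 5 DAP had 250, 257 and 253 CPM in MB and 254, 236 and 239 CPM in BM, which overlap (-0.02 ± 0.05, adjusted p = 0.82). At 11 DAP they had 1203, 1020 and 854 CPM in MB and 1825, 1626 and 1389 CPM in BM, and at 13 DAP 2217, 1880 and 2010 CPM in MB and 1497, 1443 and 1700 CPM in BM. All MB libraries were thus below all BM libraries at 11 DAP and above them at 13 DAP. MB over BM was -0.60 ± 0.15 at 11 DAP (adjusted p = 0.015) and 0.48 ± 0.07 at 13 DAP (adjusted p = 0.00062), and neither passed in 1 fit over all libraries (0.097 and 0.22). The 11 DAP call was also lost without BM replicate 1 (adjusted p = 0.061), BM replicate 2 (0.059), MB replicate 2 (0.089) or MB replicate 3 (0.063). The cross difference at 13 DAP exceeded that at 5 DAP by 0.51 ± 0.09 (interaction, adjusted p = 0.00043), but not in 1 fit over all libraries (0.42) or on FPKM (0.055).

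At 7 DAP Acc-1 had 666, 779 and 509 CPM in MB and 453, 471 and 391 CPM in BM embryos. The MB libraries lay above the BM libraries, but the difference of 0.52 ± 0.16 did not pass (adjusted p = 0.1). It passed without MB replicate 3 (0.68, adjusted p = 0.00041), by DESeq2 (0.0034) and with the replicate number as a block (0.0059). In endosperm at 5 DAP Acc-1 had 368, 378 and 300 CPM in MB and 378, 272 and 271 CPM in BM, with overlap between the crosses (0.18 ± 0.14, adjusted p = 0.42; 0.038 without BM replicate 1). Without that library the interaction with tissue was 0.40 (adjusted p = 0.011), against 0.24 ± 0.14 (adjusted p = 0.25) with it. The lowest endosperm library, at 271 CPM, was above the highest manual embryo library of that age, at 257 CPM. On TMM-scaled counts endosperm was higher by 0.82 ± 0.08 (edgeR adjusted p = 3.8e-07). That is 1.76-fold, against a ratio of mean plain CPM of 1.32. LCM embryos at 5 DAP had 71.3, 99.8 and 108 CPM in MB and 86.3, 58.0 and 75.9 CPM in BM, all below the manual embryos (-0.84 ± 0.10, adjusted p = 1.5e-06). At 3 DAP LCM embryos had 91.2, 104 and 97.2 CPM in MB and 58.9, 72.0 and 122 CPM in BM, overlapping with each other and with 5 DAP (5 over 3 DAP -0.34 ± 0.21, adjusted p = 0.34).

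The acyl carrier protein gene acp rose at every step up to 11 DAP. Its mean in manual embryos (SD, n = 6) was 240 ± 89.0 CPM at 5 DAP and 477 ± 144 CPM at 7 DAP. It was 966 ± 98.0 CPM at 9 DAP, then 1284 ± 227 CPM at 11 DAP and 1406 ± 177 CPM at 13 DAP. The rises were 1.08 ± 0.07 between 5 and 7 DAP (edgeR adjusted p = 2.9e-08), 1.09 ± 0.11 between 7 and 9 DAP (adjusted p = 4.2e-06) and 0.39 ± 0.09 between 9 and 11 DAP (adjusted p = 0.0065). From 11 to 13 DAP the change was 0.18 ± 0.07 (adjusted p = 0.095; DESeq2 0.0076). At 13 against 5 DAP acp rose by 2.76 ± 0.09 (adjusted p = 2.7e-12). A second acyl carrier protein gene, ACP (GRMZM2G091715), may share reads with it, so the split between the pair is uncertain.

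Of the 5 genes, acp was called higher in MB in the most sample kinds. At 5 DAP manual embryos had 308, 337 and 316 CPM in MB and 156, 172 and 150 CPM in BM, and MB over BM was 0.93 ± 0.07 (adjusted p = 4.9e-07). At 7 DAP they had 624, 654 and 529 CPM in MB and 363, 362 and 331 CPM in BM (0.72 ± 0.10, adjusted p = 0.0034). At both ages the groups were well apart, but at 9 DAP they overlapped, with 953, 904 and 1154 CPM in MB and 958, 955 and 874 CPM in BM (0.13 ± 0.11, adjusted p = 0.81). At 11 DAP they were apart again, with 1389, 1515 and 1547 CPM in MB and 1029, 1128 and 1095 CPM in BM (0.50 ± 0.11, adjusted p = 0.011). At 13 DAP MB embryos had 1504, 1592 and 1597 CPM and BM embryos 1251, 1262 and 1228 CPM (0.41 ± 0.06, adjusted p = 0.00039). The 11 DAP call was lost without MB replicate 2 (0.49, adjusted p = 0.069), and those at 11 and 13 DAP were lost in 1 fit over all libraries (0.12 and 0.3). The cross difference was smaller at 13 than at 5 DAP (interaction -0.50 ± 0.09, adjusted p = 0.00047; 0.29 in that fit).

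Endosperm held more acp transcript than manual embryos of the same age. It had 428, 442 and 427 CPM in MB and 340, 355 and 364 CPM in BM endosperm, and every one of these was above the highest manual embryo library, at 337 CPM. On TMM-scaled counts the difference was 1.21 ± 0.10 (edgeR adjusted p = 2.6e-08). That is 2.31-fold, against a ratio of mean plain CPM of 1.64. MB endosperm was above BM endosperm by 0.28 ± 0.06 (adjusted p = 0.007; 0.51 in 1 fit over all libraries), less than the cross difference in manual embryos (interaction -0.60 ± 0.10, adjusted p = 0.0003; 0.22 in that fit). LCM embryos had 118 ± 41.2 CPM at 5 DAP, with overlapping crosses, and at 3 DAP 67.8, 125 and 104 CPM in MB and 225, 191 and 92.9 CPM in BM. MB over BM at 3 DAP was -0.90 ± 0.38 (adjusted p = 0.61; 0.00039 in 1 fit over all libraries), and 5 over 3 DAP was -0.34 ± 0.28 (adjusted p = 0.5; 0.041 in that fit). LCM over manual was -0.23 ± 0.13 (adjusted p = 0.13) on scaled counts and -1.02 (adjusted p = 4.6e-05) by limma on log2(FPKM + 1), which changes the measure, the test, the filter and the scaling together.

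The desaturase gene fad7 was the member that fell with age in manual embryos. Its mean (SD, n = 6) was 159 ± 41.8 CPM at 5 DAP and 90.6 ± 37.8 CPM at 7 DAP. It was 18.4 ± 0.963 CPM at 9 DAP, then 22.7 ± 3.94 CPM at 11 DAP and 27.3 ± 4.16 CPM at 13 DAP. At 9 DAP it had 18.6, 18.7 and 18.0 CPM in MB and 19.9, 18.0 and 17 CPM in BM, the narrowest spread of this gene at any age, against 55.5, 101 and 56.0 CPM in MB and 71.7, 106 and 154 CPM in BM at 7 DAP. No library of the 2 ages overlapped, and fad7 fell by 2.24 ± 0.24 on the log2 scale (edgeR adjusted p = 4e-05). Between 5 and 7 DAP the change was -0.76 ± 0.29 (adjusted p = 0.065). It passed without BM 7 DAP replicate 3, the highest at that age (-0.96, adjusted p = 0.012), by DESeq2 (0.036), on FPKM (0.027) and in 1 fit over all libraries (0.0016). By mean CPM fad7 was 2.78 times lower at 7 than at 5 DAP in MB, with no overlap, and 1.1 times lower in BM, with overlap. Whether that interval differed between the crosses was not tested.

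After 9 DAP fad7 stayed low. The change was 0.29 ± 0.11 from 9 to 11 DAP (adjusted p = 0.06) and 0.31 ± 0.10 from 11 to 13 DAP (adjusted p = 0.064). The first passed on FPKM (0.40, adjusted p = 0.012) and without BM 9 DAP replicate 1 (adjusted p = 0.039) or BM 11 DAP replicate 3 (0.0099), the second by DESeq2 (0.033) and without BM 11 DAP replicate 1 (0.045). Between 13 and 5 DAP fad7 fell by 2.38 ± 0.06 on the log2 scale (adjusted p = 3.3e-13). By mean CPM it was 6.41 times lower at 13 than at 5 DAP in MB and 5.13 times lower in BM.

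In LCM embryos fad7 was the 1 member called with age. At 5 DAP it had 92.5, 181 and 105 CPM in MB and 76.7, 48.8 and 25.4 CPM in BM LCM embryos, against 27.2, 21.5 and 21.8 CPM in MB and 27.1, 28.0 and 23.5 CPM in BM at 3 DAP. All MB libraries were higher at 5 DAP, and BM replicate 3 at 5 DAP fell among the 3 DAP values. The rise was 1.48 ± 0.32 (edgeR adjusted p = 0.011), and 1.53 ± 0.38 (adjusted p = 0.021) without both LCM libraries that stood apart. The endosperm marker sum in LCM libraries at 5 DAP was 6460 to 24510 CPM in MB and 2506 to 7176 CPM in BM, mostly from esr1, esr2 and esr3, with o2 and bt1 at 0 in both crosses. It was 1573 to 5047 CPM in MB and 1217 to 2256 CPM in BM at 3 DAP. Its part in the fad7 change was not tested.

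Between crosses fad7 was higher in MB at the first and last manual ages. Manual embryos at 5 DAP had 191, 208 and 194 CPM in MB and 121, 123 and 120 CPM in BM, and those at 13 DAP had 28.3, 32.5 and 31.6 CPM in MB and 23.5, 24.8 and 22.9 CPM in BM. The groups did not overlap at either age, with MB over BM at 0.62 ± 0.06 at 5 DAP (edgeR adjusted p = 7.2e-06) and 0.46 ± 0.10 at 13 DAP (adjusted p = 0.0049). Neither passed in 1 fit over all libraries (0.15 and 0.47). MB over BM was -0.69 ± 0.41 at 7 DAP (adjusted p = 0.38) and 0.36 ± 0.16 at 11 DAP (adjusted p = 0.14), with overlapping libraries at both ages. In LCM embryos at 5 DAP every MB library was above every BM library, at 1.09 ± 0.37 (adjusted p = 0.1), which passed by DESeq2 (0.024), with the replicate number as a block (0.049) and in 1 fit over all libraries (0.0023). In endosperm fad7 had 44.8, 35.0 and 31.8 CPM in MB and 38.7, 38.4 and 38.2 CPM in BM, with overlap (-0.06 ± 0.12, adjusted p = 0.76). The cross difference was lower in endosperm than in manual embryos (interaction -0.63 ± 0.13, adjusted p = 0.0023; 0.44 in 1 fit over all libraries). Endosperm was below manual embryos in both crosses (-1.62 ± 0.11, adjusted p = 5.2e-09). LCM over manual embryos at 5 DAP was -0.22 ± 0.21 (adjusted p = 0.36) on TMM-scaled counts. By mean plain CPM LCM embryos stood at 0.64 times manual embryos in MB and 0.414 times in BM, with no overlap within either cross.

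DGAT1-2, the gene of the last step of oil assembly, rose with age in manual embryos. Its mean (SD, n = 6) was 28.5 ± 3.67 CPM at 5 DAP and 49.7 ± 36.9 CPM at 7 DAP. It was 80.2 ± 9.38 CPM at 9 DAP, then 98.9 ± 16.4 CPM at 11 DAP and 101 ± 8.64 CPM at 13 DAP. The 13 DAP libraries, at 90.7 CPM or more, were all above the 5 DAP libraries, at 33.5 CPM or less, and the rise was 1.96 ± 0.09 (edgeR adjusted p = 1.1e-10). Single steps were less clear: 0.67 ± 0.36 from 5 to 7 DAP (adjusted p = 0.17; 0.013 in 1 fit over all libraries) and 0.90 ± 0.34 from 7 to 9 DAP (adjusted p = 0.058). The second of these passed without MB 7 DAP replicate 2 (1.21, adjusted p = 0.0016), by DESeq2 (0.02), on FPKM (0.007) and in 1 fit over all libraries (0.00058). From 9 to 11 DAP the rise of 0.29 ± 0.10 passed narrowly (adjusted p = 0.04). It was lost in 13 settings, at adjusted p = 0.051 to 0.35: without BM 9 DAP replicate 3, MB 9 DAP replicate 1 or 3, BM 11 DAP replicate 3 or any 1 of the 3 MB 11 DAP replicates, and in each of 6 other alternatives.

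The group means of DGAT1-2 stepped up at other ages in MB than in BM. At 7 DAP it had 61.8, 118 and 43.7 CPM in MB and 18.1, 24.4 and 32.4 CPM in BM embryos. All MB libraries were above all BM libraries, but their own spread was wide, and MB over BM at 1.53 ± 0.48 did not pass (edgeR adjusted p = 0.14; DESeq2 0.028; 0.0012 in 1 fit over all libraries). The mean in MB was 2.56 times higher at 7 than at 5 DAP and 1.11 times higher at 9 than at 7 DAP. In BM the mean was 0.894 times that of 5 DAP at 7 DAP, with overlap, and 3.11 times higher at 9 than at 7 DAP, with none. Whether these intervals differed between the crosses was not tested. At 13 DAP DGAT1-2 had 115, 98.8 and 105 CPM in MB and 90.7, 94.3 and 103 CPM in BM, which overlap. Its call there (0.23 ± 0.08, adjusted p = 0.041) was lost in 9 settings, at adjusted p = 0.057 to 0.83, among them without BM replicate 1 or 2 or MB replicate 1 or 3. At 11 DAP MB over BM was 0.35 ± 0.13 (adjusted p = 0.084; 0.033 without a filter, 0.0043 without BM replicate 3).

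Endosperm had the lowest mean CPM of DGAT1-2 among the sample kinds, and LCM embryos at 5 DAP had more than manual embryos. Endosperm libraries held 7.17, 5.62 and 4.14 CPM in MB and 11.4, 9.04 and 7.42 CPM in BM, all below the lowest manual embryo library at 5 DAP, at 23.8 CPM (-1.57 ± 0.16, edgeR adjusted p = 4.4e-07). MB endosperm was below BM endosperm in every library (-0.73 ± 0.23, adjusted p = 0.042). That call was lost by DESeq2 (0.061), on FPKM (0.078), in 1 fit over all libraries (0.26), and without BM replicate 1 or 2 (0.16 and 0.11) or MB replicate 2 or 3 (0.11 and 0.1). The interaction with tissue was -0.66 ± 0.26 (adjusted p = 0.089), and it passed without MB embryo replicate 2 (0.044) or MB endosperm replicate 1 (0.031). LCM embryos at 5 DAP had 35.2, 42.4 and 49.7 CPM in MB and 50.7, 27.5 and 48.5 CPM in BM, above manual embryos by 1.31 ± 0.14 (adjusted p = 4.2e-07). That is 2.49-fold on scaled counts, against a ratio of mean plain CPM of 1.49 with overlapping libraries. BM replicate 2 of these LCM libraries fell within the manual range of 23.8 to 33.5 CPM before scaling. In LCM embryos at 3 DAP DGAT1-2 had 31.5, 31.6 and 46.4 CPM in MB and 9.82, 25.1 and 8.98 CPM in BM (1.24 ± 0.48, adjusted p = 0.59; 0.00092 in 1 fit over all libraries). Its log2 fold change at 5 over 3 DAP in LCM embryos was 0.69 ± 0.33 (adjusted p = 0.21; 0.0035 in that fit).

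**Figure D2:**
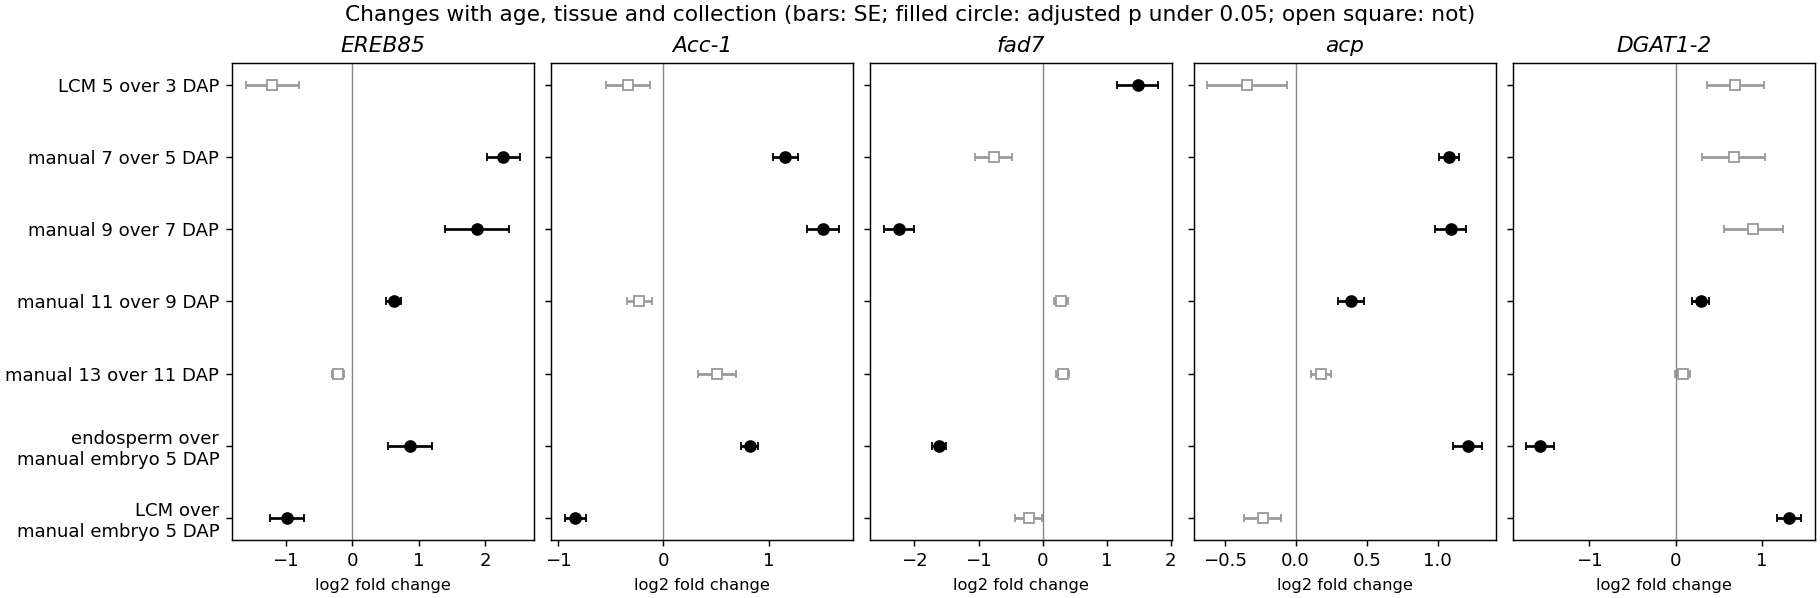
Log2 fold change of each gene with age (later over earlier), with tissue (endosperm over manual embryo) and with collection (LCM over manual embryo), edgeR, 6 libraries per side; bars are SE, filled circles have adjusted p under 0.05 and open squares do not. EREB85, Acc-1 and acp lie right of 0 between 5 and 9 DAP and fad7 lies left, at -2.24 between 7 and 9 DAP.

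Set against all genes tested, the age changes of the 5 members were as follows. Between 7 and 5 DAP 3 of 5 were called, all higher, where 40.6% of all genes tested were called, and the median log2 fold change was 1.08 for the members and -0.01 for all genes. Between 9 and 7 DAP 3 were called higher and 1 lower, where 39.1% of genes were called, with medians of 1.09 and 0. Between 11 and 9 DAP 3 were called higher, where 26% were called. Between 13 and 11 DAP edgeR called 0 of 5, although 4 had an unadjusted p of 0.0062 to 0.023, and DESeq2 called 3; 6.4% of all genes were called. Between 13 and 5 DAP all 5 were called, 4 higher and 1 lower, where 63.3% of genes were called. In LCM embryos 1 was called, higher, between 5 and 3 DAP, where 9.88% of genes were called, 2.85% higher and 7.04% lower. All 5 members passed the filter on low counts in every comparison.

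Differences of tissue and collection were called for most of the genes tested. In endosperm against manual embryos 5 of 5 members were called, 3 higher and 2 lower, and 79.9% of all genes were called. In LCM against manual embryos 3 of 5 were called, 1 higher and 2 lower, and 76.4% of all genes were called.

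**Figure D3:**
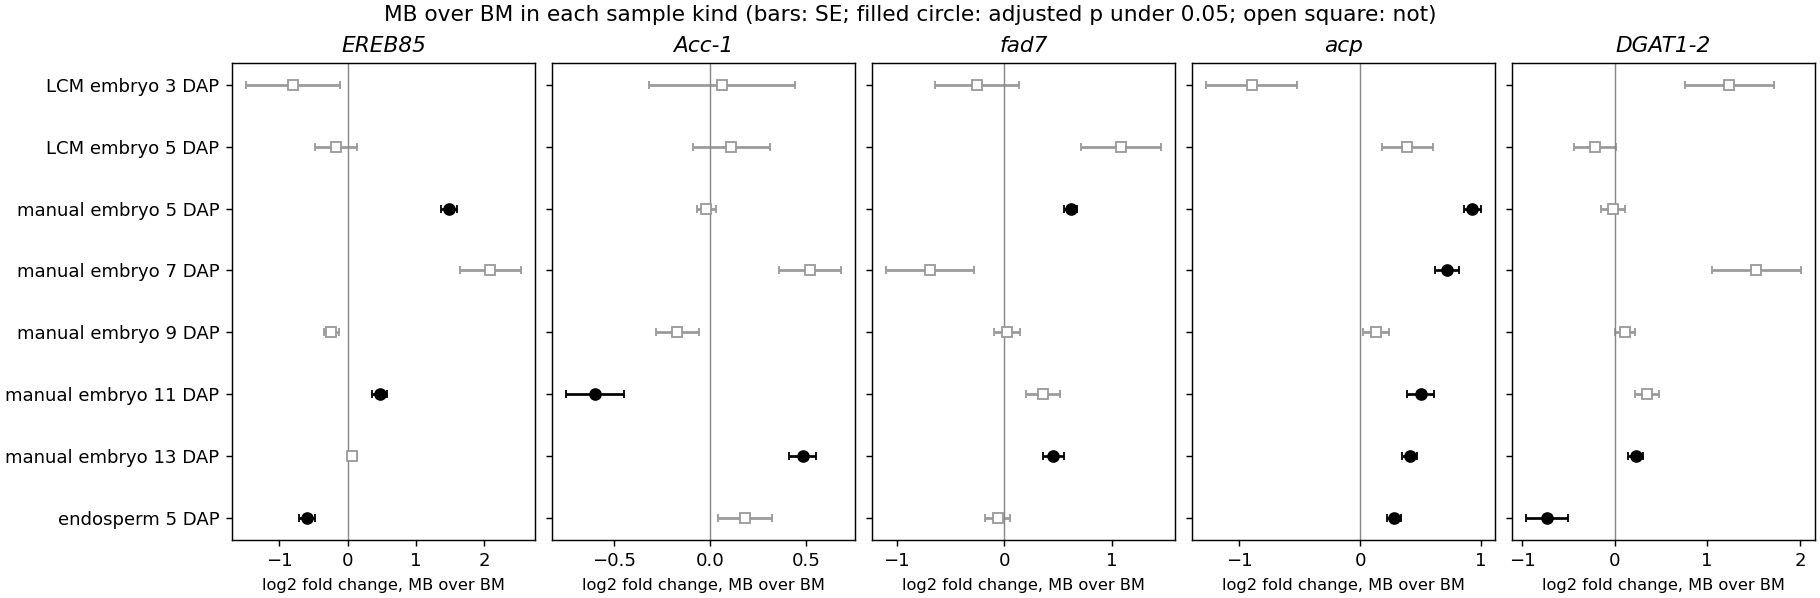
Log2 fold change of MB over BM for each gene in the 8 sample kinds, edgeR, 3 libraries per cross; bars are SE, filled circles have adjusted p under 0.05 and open squares do not. EREB85 lies at 1.48 in manual embryos and at -0.60 in endosperm at 5 DAP, and all 5 genes lie between -0.24 and 0.13 in manual embryos at 9 DAP.

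Between MB and BM, manual embryos at 5 DAP had 3 of 5 members called, all higher in MB, where 27.2% of all genes tested were called, 12.9% higher and 14.4% lower in MB. At 7 DAP 1 was called higher in MB, and over all genes 8.32% were called, 3.73% higher and 4.59% lower. At 9 DAP 0 were called (0.029%), none had an unadjusted p under 0.05, and DESeq2 also called 0. At 11 DAP 2 were called higher and 1 lower in MB (14.3% of all genes called, 6.87% higher and 7.42% lower). At 13 DAP 4 were called higher (26.5%, 15.2% higher and 11.3% lower). In endosperm 1 was called higher and 2 lower in MB (21.3%, 9.05% higher and 12.2% lower). In LCM embryos 0 were called at 3 DAP (0.0161%), where 2 had an unadjusted p of 0.029 and 0.041 and DESeq2 called 0, and 0 at 5 DAP (6.96%, 3.14% higher and 3.82% lower), where fad7 had an unadjusted p of 0.015 and was called by DESeq2. At 13 DAP the endosperm marker sum was 42.2 to 149 CPM in MB, with ebe2 at 0, and 692 to 1288 CPM in BM embryos, and the embryo marker sum was 69.7 to 75.0 CPM in MB and 106 to 136 CPM in BM embryos. The part of these markers was not tested.

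The test of the difference between cross effects called 3 members for endosperm against manual embryos at 5 DAP, all lower, where 19.8% of all genes were called, 11.3% higher and 8.46% lower. It called 1 for LCM against manual embryos (lower; 5.78% of all genes, 3.48% higher and 2.3% lower) and 3 for manual embryos at 13 against 5 DAP (1 higher and 2 lower; 24%, 12% in each direction). EREB85 was among the calls in all 3 tests, with a lower MB over BM in endosperm, in LCM embryos and at 13 DAP than in manual embryos at 5 DAP. All 3 tests share those manual libraries at 5 DAP.

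Per length, acp was the most abundant member in all 8 sample kinds. Its mean FPKM (SD, n = 6) was 599 ± 71.1 in endosperm, 173 ± 78.6 in LCM embryos at 3 DAP and 157 ± 55.7 at 5 DAP. In manual embryos it was 324 ± 125 at 5 DAP and 2011 ± 292 at 13 DAP. The gene below it changed with age. It was fad7 in LCM embryos at both ages and in manual embryos at 5 DAP (105 ± 29.7 FPKM). Over both crosses it was Acc-1 in manual embryos at 7, 9 and 13 DAP (224 ± 36.6 FPKM at 13 DAP) and in endosperm (41.5 ± 6.66 FPKM). At 7 DAP the crosses differed in this order. Acc-1 averaged 80.9 FPKM and fad7 44.2 FPKM in MB, against 54.5 FPKM and 72.8 FPKM in BM. At 11 DAP the mean FPKM of EREB85 (229 ± 49.6) was above that of Acc-1 (164 ± 45.4), with overlapping libraries. Within crosses EREB85 was above Acc-1 in MB (273 and 128 FPKM) but below it in BM (184 and 200 FPKM).

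The lowest place by mean FPKM also moved. Over both crosses EREB85 held it in LCM embryos and in manual embryos at 5 DAP (10.8 ± 5.60 FPKM), DGAT1-2 at 7 DAP (19.4 ± 12.8 FPKM) and in endosperm (3.72 ± 1.17 FPKM), and fad7 from 9 DAP on (19.8 ± 3.89 FPKM at 13 DAP). In manual embryos at 5 DAP DGAT1-2 was below EREB85 in MB (12.9 and 15.8 FPKM) but above it in BM (12.7 and 5.82 FPKM). In LCM embryos at 3 DAP EREB85 was lowest in MB (6.91 FPKM). In BM at that age DGAT1-2 (5.59 FPKM) and Acc-1 (10.1 FPKM) were below EREB85 (11.0 FPKM). At 13 DAP the transcription factor gene EREB85 was at 182 ± 16.7 FPKM, above DGAT1-2 at 47.7 ± 4.73 FPKM and with all libraries above it.

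**Figure D4:**
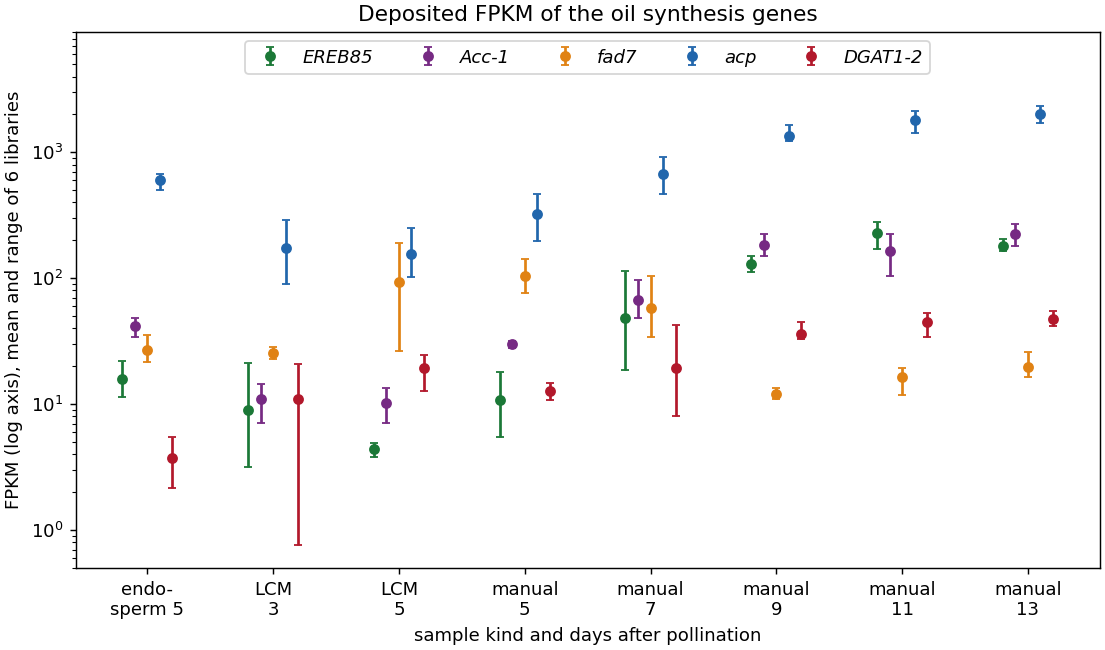
Deposited FPKM (log axis) of the 5 genes by sample kind, as mean and range over 6 libraries, with both crosses pooled. The points of acp lie highest in every kind, and in manual embryos those of fad7 move from the second place at 5 DAP to the last place from 9 DAP on.

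Across sample kinds the order of mean CPM was read within each gene. EREB85 was highest in manual embryos at 11 DAP, then at 13, 9 and 7 DAP, in endosperm, in manual embryos at 5 DAP and in LCM embryos at 3 and 5 DAP. In that order the neighbours 13 and 9 DAP and the neighbours manual 7 DAP and endosperm did not overlap, and the other neighbours did. For Acc-1 the 3 oldest ages overlapped as neighbours (13, 9 and 11 DAP), and below them manual 7 DAP, endosperm, manual 5 DAP and LCM embryos at 3 DAP were each apart from the kind above. For acp the gaps were below 9 DAP and below endosperm. For fad7, from manual embryos at 5 DAP down to those at 9 DAP, and for DGAT1-2, from manual embryos at 13 DAP down to endosperm, each kind overlapped with the next. The last pair for DGAT1-2 was LCM embryos at 3 DAP, which reached down to 8.98 CPM, and endosperm, with 4.14 to 11.4 CPM.

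Other genes of the oil pathway were taken from a list of symbols, 40 genes beside the 5 members. Between 13 and 5 DAP 20 of the 39 tested were called higher and 13 lower (median 0.29), where 30.3% of all genes tested were called higher and 33% lower. Of 2 other fatty acid synthesis genes both were higher: ACP (GRMZM2G091715), which codes for an acyl carrier protein, averaged 1239 ± 61.9 CPM at 13 DAP and 265 ± 115 CPM at 5 DAP (means with SD, n = 6; log2 fold change 2.48 ± 0.15, adjusted p = 2e-08), and FatB (GRMZM5G829544) averaged 64.7 ± 5.90 CPM at 13 DAP and 41.8 ± 2.85 CPM at 5 DAP (0.77 ± 0.07, adjusted p = 2.7e-07). Of 6 other desaturase genes 3 were higher and 2 lower. SAD1 (GRMZM5G852502) averaged 2239 ± 266 CPM at 13 DAP and 134 ± 49.6 CPM at 5 DAP (4.28 ± 0.10, adjusted p = 8.2e-14). FAD2 (GRMZM2G056252), named for the desaturase that makes linoleic acid, averaged 568 ± 141 CPM at 13 DAP and 139 ± 19.9 CPM at 5 DAP (2.16 ± 0.17, adjusted p = 3.2e-07). The desaturase gene fad8 (GRMZM2G074401), singled out after its values were seen, fell like fad7 between 7 and 9 DAP (-1.19 ± 0.23, adjusted p = 0.0016) and between 5 and 13 DAP (-1.42 ± 0.22, adjusted p = 8.2e-05).

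Both oleosin genes, which code for the protein coat of oil bodies, had the largest changes among the pathway genes that are named here. At 13 against 5 DAP ole1 (GRMZM2G337229) rose by 6.36 ± 0.47 (edgeR adjusted p = 9.2e-07), with 1597 ± 586 CPM at 13 DAP and 26.2 ± 20 CPM at 5 DAP (means with SD, n = 6). Likewise ole17 (GRMZM2G480954) rose by 9.97 ± 0.56 (adjusted p = 7.7e-08), with 160 ± 77.8 CPM at 13 DAP and 0.16 ± 0.203 CPM at 5 DAP, a level near 0 at which the fitted fold depends on the prior count. Of 6 genes listed under pyruvate dehydrogenase and carbon supply 4 were higher and 1 lower. Among those higher were the phosphoenolpyruvate translocator gene ppt1 (GRMZM2G047404) at 2.08 ± 0.06 (adjusted p = 5.1e-13) and the glucose phosphate translocator gene gpt (GRMZM2G180720) at 1.63 ± 0.17 (adjusted p = 4.3e-06). Of 2 other regulators lec1 fell (-2.43 ± 0.48, adjusted p = 0.0012) and vp1 (GRMZM2G133398) stood at -0.27 ± 0.18 (adjusted p = 0.22). The list placed 3 other genes under triacylglycerol assembly by symbol alone, and their roles were not checked. Of these 1 was lower, GPDH1 (GRMZM2G155348) at -0.25 ± 0.08 (adjusted p = 0.015), and GPDH3 (GRMZM2G173195) stood at 0.19 ± 0.12 (adjusted p = 0.17).

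Lipid breakdown and wax genes went both ways over the same ages. Of 13 breakdown genes, mostly lipoxygenases, which oxidise polyunsaturated fatty acids, 7 were higher and 6 lower at 13 than at 5 DAP. The lipoxygenase gene lox3 (GRMZM2G109130) stood at 3.75 ± 0.46 (adjusted p = 4.8e-05) and lox4 (GRMZM2G109056) at -0.51 ± 0.10 (adjusted p = 0.00052). Of 5 wax and long-chain genes tested 2 were higher and 2 lower, with fae1 (GRMZM2G022558) at 1.5 ± 0.09 (adjusted p = 3.6e-09) and CER1 (GRMZM2G099097) at -3.18 ± 0.21 (adjusted p = 1.3e-07). By interval, the other pathway genes called higher and lower were 14 and 6 of 38 between 7 and 5 DAP, 17 and 13 of 39 between 9 and 7 DAP, 10 and 1 of 38 between 11 and 9 DAP, and 1 and 0 of 37 between 13 and 11 DAP. In all genes tested the shares called higher and lower were 19.6% and 21% between 7 and 5 DAP, 19.1% and 20% between 9 and 7 DAP, 12.9% and 13.1% between 11 and 9 DAP, and 3.59% and 2.81% between 13 and 11 DAP.

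In endosperm against manual embryos at 5 DAP 18 of 38 other pathway genes were higher and 14 lower, where 37.7% of all genes were called higher and 42.2% lower. FAD2 averaged 858 ± 115 CPM in endosperm and 139 ± 19.9 CPM in embryos (SD, n = 6; log2 fold change 3.04 ± 0.11, adjusted p = 4e-12). ACP averaged 658 ± 110 CPM in endosperm and 265 ± 115 CPM in embryos (1.84 ± 0.11, adjusted p = 6e-10), the same direction as acp. Both other regulators were lower in endosperm, lec1 by -6.94 ± 0.26 (adjusted p = 7.2e-12) and vp1 by -2.21 ± 0.13 (adjusted p = 1.2e-09). The oleosin gene ole1 averaged 73.7 ± 10.1 CPM in endosperm and 26.2 ± 20 CPM in embryos (2.2 ± 0.35, adjusted p = 0.00013). In LCM against manual embryos 12 of 36 other pathway genes were higher and 16 lower, with 35.4% and 41% over all genes.

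The members differed in how alike their patterns were. Over the 16 group means of log2(CPM + 1), Pearson's r was 0.96 for EREB85 with Acc-1, 0.97 for EREB85 with acp and 0.96 for Acc-1 with acp. It was 0.57 to 0.69 for DGAT1-2 with these 3 genes and -0.51 to -0.30 for fad7 with the other 4 members. The group means share libraries, scaling and the course of age, so these values describe the patterns and carry no test.

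Among 1847 genes with a name and at least 10 CPM in some sample kind, those most like EREB85 were thiolase1 (GRMZM2G085474, r = 0.988), SAD1 (r = 0.984) and fab1 (GRMZM2G099696, r = 0.979). For Acc-1 they were CLA1 (GRMZM2G019260, r = 0.981), MZPPT4 (GRMZM2G103047, r = 0.979) and CBL10 (GRMZM2G116584, r = 0.979). For acp they were fab1 (r = 0.979), EREB85 (r = 0.971) and CBL10 (r = 0.971). For fad7 they were CM2 (GRMZM2G179454, r = 0.964), the transcription factor gene bHLH116 (GRMZM2G042895, r = 0.914) and In2-1 (GRMZM2G042639, r = 0.882). For DGAT1-2 they were Ann10 (GRMZM2G067752, r = 0.970), spp1 (GRMZM2G055489, r = 0.931) and HST (GRMZM2G113476, r = 0.928). MZPPT4 is also in the pathway list, under pyruvate dehydrogenase and carbon supply, with 324 ± 17.8 CPM at 13 DAP and 93.0 ± 18.6 CPM at 5 DAP.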

How the data were processed

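Messenger RNA libraries of endosperm and embryos were sequenced by Illumina, per the labels' protocols. Raw read counts, whole numbers for each gene model and library, stand in the deposited table. It also gives the authors' FPKM per gene model and library, as deposited. The submitters' processing notes name Cufflinks 2.2.1, HTSeq, TopHat and FastQC, with no role stated. For genome build, annotation release, strand setting and shared reads nothing is given in the sources used here; antisense transcripts cannot be told apart, values of related genes are uncertain, and no coordinates or sequences were used here.

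CPM is the count over the sum of all gene models (7130090 to 21698127 per library). Counts were tested with the quasi-likelihood test of edgeR 4.0.16 (R 4.3.3), robust and two-sided, after TMM scaling and a filterByExpr filter on the groups. A call is an adjusted p (Benjamini-Hochberg, all genes tested) under 0.05. Each of 19 comparisons was fitted on its own libraries, with cross as an additive term where sample kinds were compared; interactions tested differences between cross effects. SE is the size of the log2 fold change over the square root of F. The code was tested on simulated counts. Names came from a RefSeq gene table of Zm-B73-REFERENCE-NAM-5.0, which matched 18775 of 39656 gene models (47.3%). All 5 members are named, with the 3 genes most alike in pattern for each and, from each group of the pathway list, at most the 2 with the highest mean CPM. That list holds genes chosen by symbol, 45 kept and 4 left out by identity. Members, lists, markers and rules were chosen with earlier results of these data known.

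Alternatives were RLE size factors, DESeq2 1.42.0, no filter, 1 fit over all 48 libraries, a block for the replicate number, limma 3.58.1 on log2(FPKM + 1) where mean FPKM was 1 or more, TMM-scaled CPM for levels, and leaving out each library. Leaving out both outlying LCM libraries of 3 DAP was added after seeing the data. Replicates differed beyond sampling noise in all 48 pairs.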

Additional observations from a re-analysis of the deposited data

Results flagged for a closer look

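The difference between MB and BM was called as dependent on tissue, collection or age for 4 of the 5 genes, by direct tests of that dependence (edgeR interaction terms, adjusted over all genes). For EREB85 the log2 fold change of MB over BM was lower by -2.04 in endosperm, by -1.64 in LCM embryos and by -1.40 in manual embryos at 13 DAP, each against manual embryos at 5 DAP. For fad7 it was lower by -0.63 in endosperm, and for acp by -0.60 in endosperm and by -0.50 at 13 DAP, against the same libraries. For Acc-1 it was higher by 0.51 at 13 DAP than at 5 DAP. All of these rest on the same 6 manual libraries at 5 DAP. Over all genes tested these tests called 19.8% for endosperm, 5.78% for LCM embryos and 24% for 13 DAP. In 1 edgeR fit over all 48 libraries only EREB85 kept calls, those for endosperm and LCM embryos. For endosperm that fit gave adjusted p = 0.44 for fad7 and 0.22 for acp. For 13 DAP it gave 0.068 for EREB85, 0.29 for acp and 0.42 for Acc-1. In those 6 libraries the 4 embryo markers summed to 227 to 276 CPM in MB and 49.4 to 60.9 CPM in BM, and the 10 endosperm markers to 1733 to 1801 CPM in MB and 8977 to 10178 CPM in BM, mostly from esr1, esr2 and esr3. The part of these markers was not tested.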

How the results depend on the processing

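Of 95 results for single members 45 were called; 26 of these stayed called under every alternative, 19 were lost under some and 0 changed direction. Counts of members called that moved by over 1.5 times are given here; smaller shifts, of 1 member each, are left out. In 1 fit over all 48 libraries it was 4 instead of 1 for LCM 5 against 3 DAP (39.7% of all genes called), 5 instead of 3 for 7 against 5 DAP (20.6%), 1 instead of 3 for 11 against 9 DAP (9.27%) and 1 instead of 0 for 13 against 11 DAP (5.27%). For MB against BM that fit gave 2 instead of 0 in LCM embryos at 3 DAP, where all genes called were 7583 (29.8%) instead of 3, and 1 instead of 0 at 5 DAP (14.3%). In manual embryos it gave 3 instead of 1 at 7 DAP (0.947%), 0 instead of 3 at 11 DAP (1.85%) and 0 instead of 4 at 13 DAP (3.1%), and in endosperm 0 instead of 3 (3.23%). For differences between cross effects it gave 1 instead of 3 for endosperm (1.85%) and 0 instead of 3 for 13 against 5 DAP (2.97%). DESeq2 gave 2 for LCM 5 against 3 DAP, 3 for 13 against 11 DAP, and for MB against BM 1 in LCM embryos at 5 DAP and 4 at 7 DAP, where FPKM gave 2. Without both LCM libraries that stood apart, an alternative chosen after seeing the data, 2 were called for LCM 5 against 3 DAP.

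Leaving out 1 library gave 1 to 2 members for LCM 5 against 3 DAP, 0 to 2 for 13 against 11 DAP (2 without BM 11 DAP replicate 1), 1 to 3 for MB against BM at 7 DAP (more without MB replicate 2 or 3), 0 to 4 at 11 DAP (0 without MB replicate 2) and 1 to 2 for the cross effect in LCM against manual embryos (2 without MB LCM 5 DAP replicate 2, where acp had -0.73, adjusted p = 0.049). With the replicate number as a block the count was 1 instead of 0 for MB against BM in LCM embryos at 5 DAP and 2 instead of 1 at 7 DAP, and 0 of 21774 genes were called for 13 against 11 DAP, against 1394 without it. Same-numbered libraries deviated together at correlations of -0.40 to 0.56 (median 0.01), and 0 of 16 comparisons had every correlation over 0.1. Whether such libraries share more than a number is not settled by this check, since it needs every correlation to pass. Between 11 and 9 DAP BM replicates 1 and 3 correlated at 0.56 and 0.43, and BM replicate 2 at -0.02. The cause of the shifts in members and genes called was not tested.

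TMM scaling over all libraries multiplied plain CPM by 1.28 to 1.60 in LCM, 1.05 to 1.06 in endosperm and 0.787 to 0.891 in manual libraries. Several shares of all genes called also move with 1 library left out: 1109 to 2297 genes instead of 1993 for LCM 5 against 3 DAP, 106 to 3066 instead of 1394 for 13 against 11 DAP, 446 to 1933 instead of 1310 for the cross effect in LCM against manual embryos, and for MB against BM 239 to 1820 instead of 1289 in LCM embryos at 5 DAP, 0 to 2 instead of 3 in those at 3 DAP, 419 to 3492 instead of 1794 at 7 DAP, 0 to 27 instead of 6 at 9 DAP, 856 to 3871 instead of 3052 at 11 DAP, 3184 to 5232 instead of 5430 at 13 DAP and 2436 to 4750 instead of 4200 in endosperm. At 9 DAP DESeq2 called 130 genes and the block 98.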

Other observations

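The ratio of deposited FPKM to CPM, which would be constant for a gene counted over 1 fixed length, varied with collection for EREB85 and fad7. For EREB85 its median was 0.663 in LCM embryos at 3 DAP and 0.682 at 5 DAP, 0.53 in endosperm and 0.358 to 0.445 in manual embryos. For fad7 it was 1.02 in LCM embryos at 3 DAP and 1.06 at 5 DAP, 0.70 in endosperm and 0.639 to 0.712 in manual embryos. For Acc-1 it stayed at 0.120 to 0.127 in all 8 sample kinds. DGAT1-2 had a ratio of 0.0848 in BM LCM embryos at 3 DAP replicate 3 (8.98 CPM, 0.761 FPKM), against a median of 0.446 over that sample kind. The cause of these ratios was not tested.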
